A study of Mus musculus with 9 samples.

Results

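The angiopoietin-TIE genes described here are 6 of the 23420 genes in a count matrix from sorted mouse brain endothelial cells: the ligands Angpt2 and Angpt1, the receptors Tek (which encodes TIE2) and Tie1, the receptor phosphatase Ptprb and the transcription factor Foxo1. They were taken by name. Angpt2 was chosen with its values in these libraries known, above all its higher level in APP/PS1 than in WT, so its values are given as a description without a test. All 6 passed the filter on low counts that left 13317 genes for testing.

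In the vessel wall the angiopoietins act through the tyrosine kinase receptor TIE2. ANGPT1, made mostly by cells around the endothelium, activates TIE2 and through PI3K and AKT keeps the transcription factor FOXO1 out of the nucleus, which favours a quiescent and tight endothelium. ANGPT2 is made by endothelial cells themselves, is stored in their Weibel-Palade bodies, and in many settings opposes ANGPT1 at TIE2. TIE1 is a related receptor that pairs with TIE2, VE-PTP (the product of Ptprb) removes phosphate from TIE2, and Angpt2 is itself a known target gene of FOXO1. In the brain the pathway is known for its part in vessel stability, pericyte coverage and barrier leakage.

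The 9 libraries came from male-labelled C57BL/6 mice 6 months old, each library from 20000 brain cells sorted as CD31+CD45-, a gate that takes endothelial cells and leaves out leukocytes. There were 3 libraries in each of 3 genotypes: WT, APP/PS1 and APP/PS1xRIPK1KD. APP/PS1 mice are a transgenic model of amyloid deposition. The third genotype carries the APP/PS1 alleles together with RIPK1KD, a change in the gene for RIPK1, which signals downstream of tumour necrosis factor, and is called the compound genotype below. The labels do not spell out KD, nor which promoter drives the transgenes or which stretch of Ripk1 is altered. Every library is labelled as a single mouse. The comparisons ask how the endothelial transcripts of amyloid-bearing mice differ from WT, and how they differ with the RIPK1KD alteration.

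Libraries held 16263792 to 52413200 expected counts, with a median of 46603518. The lowest total was that of APP/PS1 replicate 1, which was also the library with the highest Angpt2 level (32.2 CPM). Levels are given as CPM, the count of a gene relative to the scaled library size. At these depths a count of 3, taken as the floor, corresponds to 0.0541 to 0.189 CPM, which covers counting error only. The ribosomal RNA entry Rn45s took up 310986 to 380271 CPM in WT, 137019 to 295055 in APP/PS1 and 185050 to 259547 in the compound genotype. WT thus lay above both other genotypes without overlap, and the cause was not tested. The summed level of 7 endothelial markers, Pecam1, Cldn5 and Cdh5 among them, lay between 13186 and 16500 CPM in every library, against at most 3.63 CPM for 6 leukocyte markers. Ripk1 had a mean of 42.7 ± 6.89 CPM in WT, 56.3 ± 17.5 in APP/PS1 and, for the compound genotype, 37.3 ± 6.91 (SD over 3 libraries), which does not check the label, since the altered stretch is not known here. Replicates 1 and 2 of every genotype carried Xist, the RNA of the inactive X chromosome, at 264 to 534 CPM, and their 4 Y-linked transcripts summed to at most 0.434 CPM. Replicate 3 of every genotype had at most 4.78 CPM of Xist and 150 to 185 CPM of the Y-linked sum, although all 9 mice were labelled male. The split was balanced over the genotypes, and the differences of Angpt2, Tie1 and Foxo1 are given with and without replicate 3.

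Angpt2 was the member chosen for its higher level in APP/PS1 than in WT. In WT it stood at 12.1, 12.9 and 14.9 CPM in replicates 1 to 3. In APP/PS1 it stood at 32.2, 26.7 and 24.8 CPM, so that the lowest APP/PS1 library was above the highest WT library. The compound libraries had 22.7, 23.3 and 13.1 CPM: replicates 1 and 2 lay between the other genotypes, and replicate 3 lay within the WT range. These values rest on 411 to 1434 expected counts per library.

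The group means of Angpt2 were 13.3 ± 1.43 CPM in WT, 27.9 ± 3.82 in APP/PS1 and 19.7 ± 5.71 over the compound libraries (SD, n = 3 each). The fitted difference between APP/PS1 and WT was 1.07 ± 0.25 on the log2 scale (SE), a 2.1-fold higher level. Between the compound genotype and APP/PS1 it was -0.50 ± 0.247, and all 3 compound libraries lay below all 3 APP/PS1 libraries. Angpt2 was chosen for its high level in APP/PS1, so nothing is read from this lack of overlap. Between the compound genotype and WT the fitted difference was 0.57 ± 0.248, a 1.48-fold higher mean, with overlapping libraries. The intermediate place of the compound genotype is therefore the place of a mean over 2 intermediate libraries and 1 library at the WT level. Without replicate 3 of every genotype the differences were 1.23 ± 0.256, -0.36 ± 0.252 and 0.88 ± 0.254 in the same order. In the authors' deposited table the log2 fold change of Angpt2 between APP/PS1 and WT was 1.05. Because the libraries are bulk samples, fewer cells of a type and less RNA per cell cannot be told apart for this or any other transcript.

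**Figure D1:**
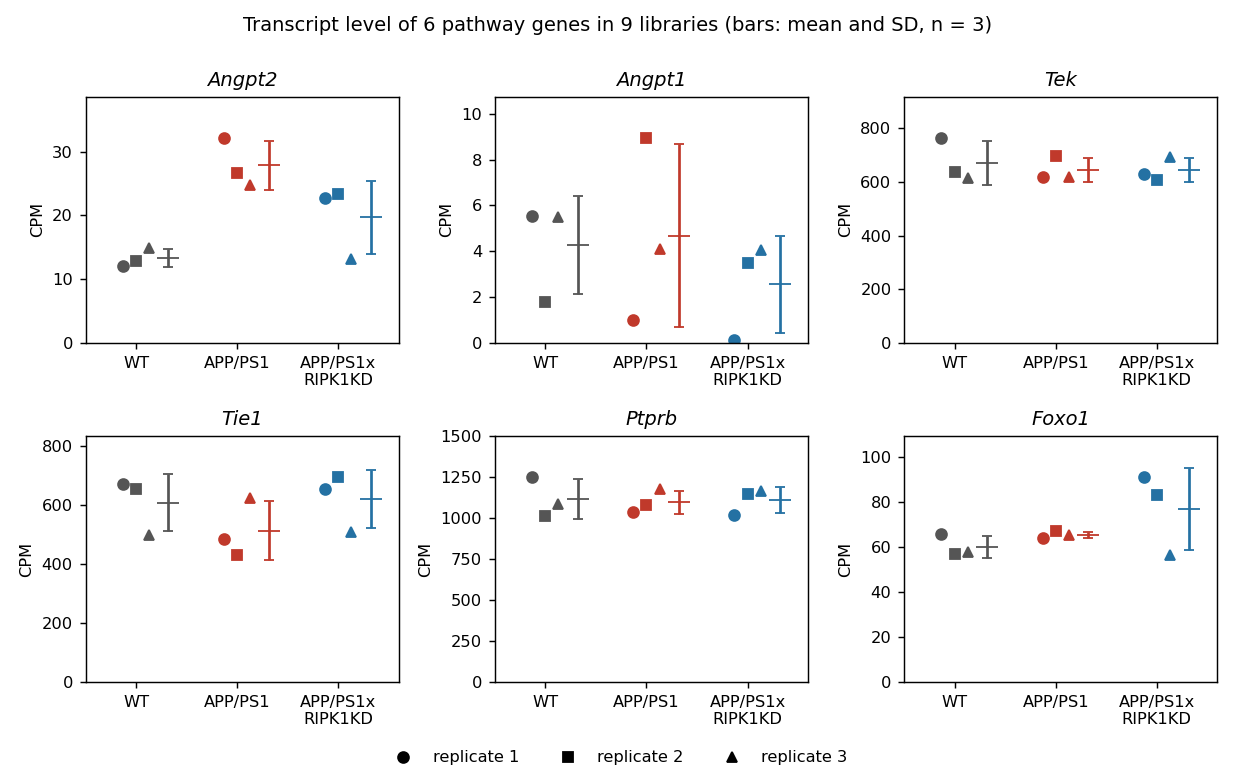
Level of each of the 6 genes in CPM (vertical axis, from 0, with its own scale in each panel) in 9 libraries of 3 genotypes; symbols are replicates 1 to 3, and the bars beside them are the mean and SD of 3 libraries. The APP/PS1 libraries of Angpt2 lie between 24.8 and 32.2 CPM, above the WT libraries at 12.1 to 14.9, whereas the genotypes overlap for the other genes in every comparison.

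Angpt2 lies on the minus strand of chromosome 8 (GRCm38 chr8:18690263-18741562, GENCODE M21), inside the interval of Mcph1, a gene of the opposite strand with which it shares 0 exon bases. The libraries keep no strand, so reads from the shared interval cannot be assigned by strand. Mcph1 stood at 3.38 ± 1.8 CPM in WT, 5.51 ± 3.94 in APP/PS1 and 4.4 ± 2.8 in the compound genotype, with overlap in every comparison. Angpt2 shared 0 words of 25 bases with Angpt1, Angpt4 or Mcph1 in the annotated transcripts, which is the length of the shorter read.

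Angpt1, the ligand that activates TIE2, was scarce and uneven. It stood at 5.52, 1.79 and 5.48 CPM in WT, at 1.01, 8.96 and 4.09 CPM in APP/PS1, and at 0.143, 3.47 and 4.04 CPM in the compound genotype. The spread within each genotype covered the whole difference between genotypes, from 7 expected counts in replicate 1 of the compound genotype to 481 in APP/PS1 replicate 2. The fitted log2 differences were 0.15 ± 0.951 for APP/PS1 against WT, -0.89 ± 0.959 for the compound genotype against APP/PS1 and -0.74 ± 0.958 for the compound genotype against WT (edgeR's quasi-likelihood test with Benjamini-Hochberg adjustment, adjusted p = 0.992, 1 and 0.995). The interval of the fold between APP/PS1 and WT ran from 0.265 to 4.64 (95%), so changes of several-fold in either direction were not detectable. Angpt1 occupies chr15:42424723-42676977 on the minus strand and shares 737 exon bases with Gm17473, an antisense gene that the matrix does not list, so their reads cannot be told apart.

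Of the other TIE ligands, Angpt4, the third angiopoietin of the mouse, had 0 counts in all 9 libraries, which allows up to 0.0541 to 0.189 CPM. Lect2, a secreted ligand of TIE1, also had 0 counts in every library. Svep1, a matrix protein that binds TIE1, had at most 14 counts in a library and did not pass the filter. Angpt2 stood above Angpt1 in each of the 9 libraries. Its level per transcript length was 2.63 to 8.59 times that of Angpt1 in WT, 3.57 to 38.2 times in APP/PS1 and 3.88 to 190 times in the compound genotype, with as few as 7 counts of Angpt1 in a library.

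The receptors were abundant and even. Tek stood at 765, 637 and 613 CPM in WT, at 619, 695 and 618 CPM in APP/PS1, and at 630, 608 and 694 CPM in the compound genotype. Every genotype overlapped every other, and WT replicate 1 was the highest library. Tek did not differ past the threshold in any comparison, with log2 differences of -0.062 ± 0.123, 0.00041 ± 0.123 and -0.061 ± 0.123 for APP/PS1 against WT, the compound genotype against APP/PS1 and the compound genotype against WT (edgeR's quasi-likelihood test with Benjamini-Hochberg adjustment, adjusted p = 0.975, 1 and 0.997). The 95% intervals of the fold were 0.796 to 1.15, 0.831 to 1.2 and 0.796 to 1.15.

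Tie1, the partner receptor of TIE2, stood at 671, 653 and 497 CPM in WT, at 484, 429 and 623 CPM in APP/PS1, and at 655, 694 and 509 CPM in the compound genotype. Replicate 3 was the lowest library of WT and of the compound genotype and the highest of APP/PS1. The log2 differences were -0.24 ± 0.174, 0.27 ± 0.174 and 0.028 ± 0.174 in the same order of comparisons, and none passed the threshold (edgeR's quasi-likelihood test with Benjamini-Hochberg adjustment, adjusted p = 0.89, 1 and 0.999). The intervals of the fold were 0.649 to 1.1, 0.93 to 1.57 and 0.785 to 1.33. Without replicate 3 of every genotype, the difference of Tie1 was -0.54 ± 0.127 for APP/PS1 against WT and 0.56 ± 0.127 for the compound genotype against APP/PS1, still short of the threshold (adjusted p = 0.235 and 0.369 in the same test on 6 libraries).

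Ptprb encodes VE-PTP, the phosphatase that holds TIE2 and VE-cadherin in a less phosphorylated state. It stood at 1250, 1013 and 1087 CPM in WT, at 1037, 1080 and 1174 CPM in APP/PS1, and at 1016, 1147 and 1165 CPM in the compound genotype. The means of 1117 ± 121, 1097 ± 70.2 and 1109 ± 81.6 CPM (SD, n = 3 each) differed by less than the spread within any genotype. The log2 differences were -0.025 ± 0.12, 0.016 ± 0.12 and -0.0097 ± 0.12 (edgeR's quasi-likelihood test with Benjamini-Hochberg adjustment, adjusted p = 0.989, 1 and 0.999), and the 95% intervals of the fold were 0.82 to 1.18, 0.844 to 1.21 and 0.829 to 1.19.

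Foxo1, the transcription factor that AKT restrains below TIE2, stood at 65.6, 56.8 and 57.8 CPM in WT and at 64.1, 66.9 and 65.3 CPM in APP/PS1. The compound libraries had 91.1, 83.2 and 56.5 CPM. Replicates 1 and 2 of the compound genotype were the 2 highest of the 9 libraries, and replicate 3 was the lowest. The log2 differences were 0.12 ± 0.171, 0.23 ± 0.171 and 0.36 ± 0.171 in the same order, and none passed the threshold (edgeR's quasi-likelihood test with Benjamini-Hochberg adjustment, adjusted p = 0.964, 1 and 0.833). For the compound genotype against WT the 95% interval of the fold was 0.99 to 1.66. Without replicate 3 of every genotype the differences of the compound genotype were 0.41 ± 0.167 against APP/PS1 and 0.51 ± 0.167 against WT (adjusted p = 0.522 and 0.59 in the same test on 6 libraries). Transcript level says nothing of where the FOXO1 protein was, which is how TIE2 signalling acts on it. Foxo1 shares 674 exon bases with the antisense gene Gm20402, which the matrix does not list, and 14 words of 25 bases with Foxo3.

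Of the 5 members other than Angpt2, 0 passed the threshold of a false discovery rate of 0.05 in APP/PS1 against WT, where 0.0225% of the 13317 genes did (3 genes). Angpt2 alone of the 6 had libraries that did not overlap, against 10.9% of all genes. Between the compound genotype and APP/PS1, 0 of these 5 passed, where 0.00751% of all genes did (1 gene), and Angpt2 alone did not overlap, against 9.98% of all genes. Between the compound genotype and WT, 0 of these 5 passed, where 0.0375% of all genes did (5 genes, and 0 with the replicate number as a block), and 0 of 6 were free of overlap, against 12% of all genes. With DESeq2, which called 0.338% of the genes (45) in APP/PS1 against WT, 0 of these 5 passed there either. Angpt2 was chosen on that difference, so nothing is read from its lack of overlap. The median log2 difference over all tested genes was 0.0019, -0.0034 and 0.0031 in the 3 comparisons. These comparisons share their libraries and are not independent of each other.

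**Figure D2:**
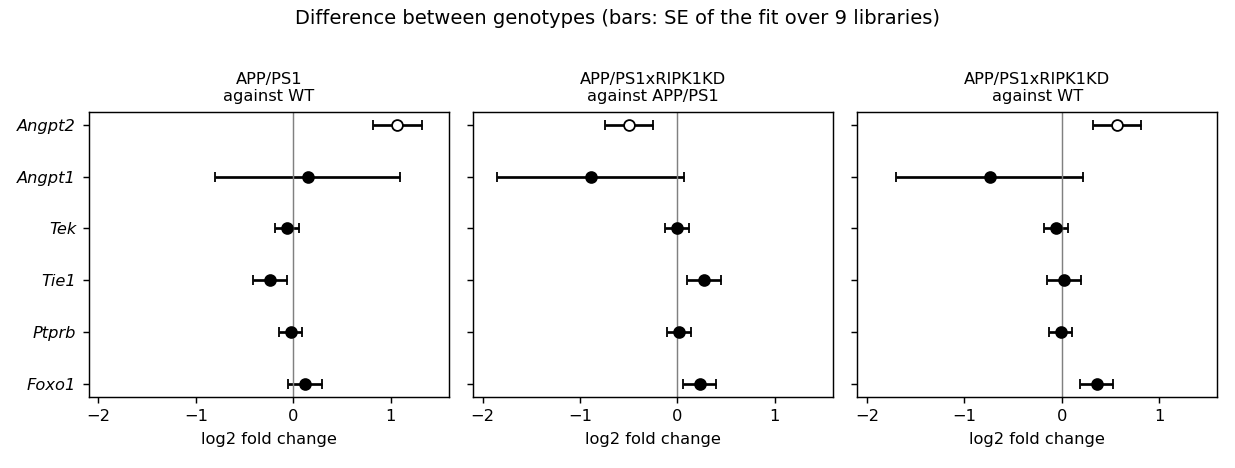
Fitted log2 fold change of each gene (horizontal axis) in the 3 comparisons of genotypes, with bars of 1 SE from the fit over 9 libraries; the open circle is Angpt2, which was chosen for its values. Angpt2 stands at 1.07, -0.50 and 0.57, Angpt1 has bars of about 1 log2 unit, and Tek and Ptprb lie within 0.062 of 0 in every panel.

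Levels of different genes are compared per kilobase of the principal transcript, averaged over the 9 libraries. On this scale Tie1 and Tek led with 142 ± 24.1 and 140 ± 11.5 CPM per kilobase (SD, n = 9), followed by Ptprb with 93 ± 6.85. Foxo1 stood at 7.79 ± 1.39, Angpt2 at 5.7 ± 2.04 and Angpt1 at 0.9 ± 0.631 CPM per kilobase. The order of Tie1 and Tek turned with the length used, since over all annotated exons they stood at 118 and 139 CPM per kilobase. Both receptors and Ptprb were above 95.2% or more of the genes with a known length, Foxo1 above 55.4%, Angpt2 above 47.6% and Angpt1 above 19.1%. The ligands of the pathway were thus far below their receptors in RNA from these cells: Angpt2 amounted to 0.0207, 0.0264 and 0.0317 of the Tek level per transcript length in WT, 0.0679, 0.0503 and 0.0525 in APP/PS1, and 0.047, 0.05 and 0.0247 in the compound genotype.

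The proportions among receptor and phosphatase transcripts overlapped between the genotypes. Tie1 stood at 1.03 ± 0.125 of the Tek level per length in WT, 0.913 ± 0.223 in APP/PS1 and 1.1 ± 0.241 for the compound libraries (SD, n = 3 each). The exact 2-sided permutation test gave p = 0.4, 0.4 and 0.7 for APP/PS1 against WT, the compound genotype against APP/PS1 and the compound genotype against WT. Ptprb stood at 0.651 ± 0.0372, 0.668 ± 0.0688 and 0.674 ± 0.0561 of the Tek level, with exact permutation p = 0.7, 0.9 and 0.6. With 3 libraries against 3 this test cannot give a p under 0.1, so these 6 values cannot show a difference and are unadjusted.

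The members also differed in how far libraries of 1 genotype spread. The pooled SD within genotypes, on the log2 scale, was 0.121 for Ptprb and 0.127 for Tek, smaller than that of all but 4.09% and 5% of the tested genes. It was 0.222 for Foxo1, 0.251 for Tie1 and 0.305 for Angpt2, all below the median of 0.347 over all tested genes. Angpt1 spread by 1.78, more than 93.2% of genes. Its counts, 7 to 481 per library, were also the lowest of the 6 genes.

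**Figure D3:**
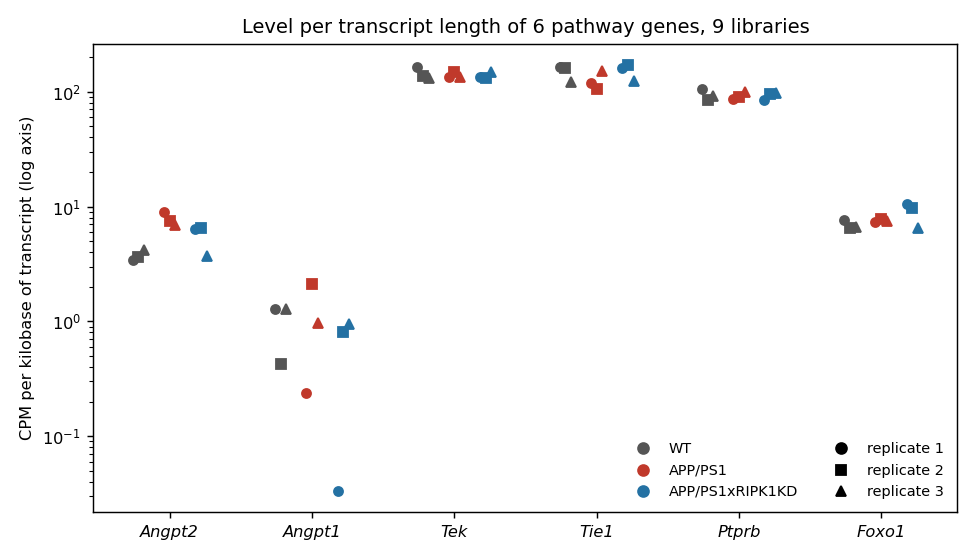
CPM per kilobase of the principal transcript (vertical log axis) of the 6 genes in 9 libraries; colour is the genotype and the symbol the replicate. Tek, Tie1 and Ptprb lie between 85 and 170, Foxo1 and Angpt2 between 3.41 and 10.5, and Angpt1 between 0.0335 and 2.1.

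RefSeq promoter sequences were at hand for Tek, Tie1 and Foxo1. The 250 bases before the start of Tek and of Foxo1 are shown because ETS factors, FOXO factors and GATA2 are the known regulators of this pathway whose transcripts are counted below, and these windows show which of their short motifs are spelled out. Capitals mark GGAA, the core that ETS factors bind, or TTCC where it is read on the other strand. The builds and strands are GRCm38.p6, chr4:94739039-94739288 on the plus strand for Tek and chr3:52268087-52268336 on the plus strand for Foxo1.
Tek: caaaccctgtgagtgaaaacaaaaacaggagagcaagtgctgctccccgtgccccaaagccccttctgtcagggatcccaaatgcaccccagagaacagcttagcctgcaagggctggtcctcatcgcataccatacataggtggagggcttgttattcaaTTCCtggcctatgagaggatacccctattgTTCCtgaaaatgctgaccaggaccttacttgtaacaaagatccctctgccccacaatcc
Foxo1: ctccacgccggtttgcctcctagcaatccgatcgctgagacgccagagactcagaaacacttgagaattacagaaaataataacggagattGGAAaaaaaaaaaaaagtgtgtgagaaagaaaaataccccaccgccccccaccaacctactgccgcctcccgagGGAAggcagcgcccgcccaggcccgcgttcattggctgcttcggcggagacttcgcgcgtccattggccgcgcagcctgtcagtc
Each window held 2 matches of GGAA on both strands together. Of 32851 promoters of the same length, 76.8% held at least 2 matches and 93.4% at least 1. In Tek both matches were part of CAGGAA, the longer ETS word, which 25.7% of promoters held at least once. The window of Tie1, of which most lies in the annotated transcript, held 7 matches of GGAA, a number that 3.82% of promoters reached. The FOXO word GTAAACA (3.17% of promoters), the shorter forkhead word TAAACA (12%), which GTAAACA contains, and the GATA word AGATAA (9.99%) had 0 matches on either strand in these 3 windows. A match is a match of letters and shows no binding.

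Markers of another cell type moved with the genotypes that differed in Angpt2. The summed level of 16 markers of mural cells (pericytes and vascular smooth muscle) was 61.1, 14.5 and 42.8 CPM in WT, 192, 248 and 204 CPM in APP/PS1, and 71.8, 121 and 268 CPM in the compound genotype. Of the 16 markers, 15 had a higher mean in APP/PS1 than in WT and 14 in the compound genotype than in WT, and 0 were at 0 in a whole genotype. Both genotypes with APP/PS1 alleles lay above WT without overlap. In the compound genotype against APP/PS1, 1 of the 16 markers had a higher mean, and the sums overlapped. The mean sums were 39.5 ± 23.5 CPM in WT, 215 ± 29.7 in APP/PS1 and 153 ± 102 in the compound genotype (SD over 3 libraries). The Angpt2 means stood in the same order of genotypes. The library with the highest mural sum, replicate 3 of the compound genotype, had Angpt2 at 13.1 CPM, within the range of WT. Fibroblast markers summed to 0.822 ± 0.602 CPM in WT, 9.32 ± 3.57 in APP/PS1 and 4.97 ± 2.66 in the compound genotype, and oligodendrocyte markers to 5.15 ± 2.71, 27.3 ± 21 and 7.57 ± 3.65 (SD over 3 libraries), both without overlap between APP/PS1 and WT. In the compound genotype against WT, the fibroblast sum was also higher without overlap, while the oligodendrocyte sum overlapped. The part of these cells in the level of Angpt2 was not tested.

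Within genotypes, Angpt1 and the mural sum ranked the libraries alike. In 3 of 3 genotypes the 3 libraries stood in the same order by Angpt1 as by the mural sum: WT replicates 1, 3 and 2, APP/PS1 replicates 2, 3 and 1, and compound replicates 3, 2 and 1, from high to low. For Ptprb and Foxo1 the orders matched in 2 of 3 genotypes, and for Angpt2, Tek and Tie1 in 0 of 3. Between genotypes the 2 measures parted, since the mural sum was higher in every APP/PS1 library than in every WT library while the Angpt1 levels overlapped. This is a description of 3 libraries at a time, with no test.

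**Figure D4:**
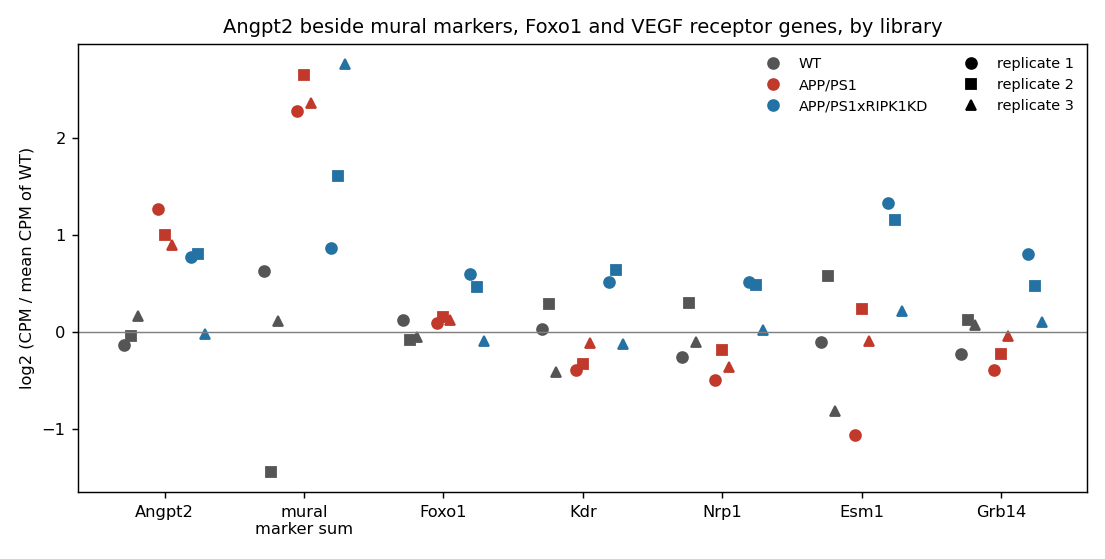
Level relative to the mean of WT (vertical axis, log2 of the CPM ratio, 0 at the WT mean) of Angpt2, of the sum of 16 mural markers and of 5 other genes in 9 libraries; colour is the genotype and the symbol the replicate. Replicate 3 of the compound genotype (blue triangle) is lowest of its genotype for every gene shown and highest for the mural sum. Other named genes that are not shown, such as Timp3 and Vwf, were highest of that genotype in replicate 3. Kdr, Nrp1, Esm1 and Grb14 of APP/PS1 do not stand above WT as Angpt2 does.

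The other genes of the pathway were taken from 11 lists of 100 genes, of which 96 were tested. In APP/PS1 against WT, 0 of 96 passed the threshold (lowest adjusted p = 0.787 by edgeR's quasi-likelihood test with Benjamini-Hochberg adjustment). At an unadjusted p under 0.05 there were 5 (5.21%), against 6.14% of all tested genes. For the compound genotype against APP/PS1 0 of 96 passed (lowest adjusted p = 0.98) and 9 (9.38%) had an unadjusted p under 0.05, against 4.78% of all genes. For the compound genotype against WT 0 of 96 passed (lowest adjusted p = 0.552) and 12 (12.5%) had an unadjusted p under 0.05, against 6.18% of all genes. The median log2 differences of the 96 genes, -0.029, -0.035 and -0.0095, were close to those of all genes given above. The genes named below are those with the smallest p of each list in each comparison and a set named regardless of its values. None of them passed the threshold in any comparison, and their values are descriptions. Of the 96 genes, 8.33%, 12.5% and 15.6% had libraries that did not overlap in the 3 comparisons. The shares of all tested genes were 10.9%, 9.98% and 12%. Where a lack of overlap is named below, nothing is read from it about the gene.

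Among the 5 integrins that bind angiopoietins or TIE2, the beta chain Itgb1 stood at 432 ± 43.7 CPM in WT, 503 ± 56.8 in APP/PS1 and 459 ± 59.6 in the compound genotype. Itgb3 stood at 8.09 ± 4.65, 4.16 ± 0.483 and 4.76 ± 4.18 CPM, and Itgb5 at 4 ± 1.95, 2.73 ± 0.873 and 4.16 ± 0.0514. Of these chains only Itgb5 had genotypes without overlap, the compound genotype above APP/PS1. Among the 6 proteases of receptor and ligand shedding and their inhibitor, Adam10, a membrane sheddase, stood at 234, 214 and 225 CPM in WT, 318, 294 and 244 in APP/PS1 and 285, 285 and 283 in the compound genotype. Adam10 lay above WT without overlap in both genotypes (log2 difference 0.35 ± 0.124 and 0.34 ± 0.124, adjusted p = 0.787 and 0.69 by edgeR's quasi-likelihood test with Benjamini-Hochberg adjustment). The inhibitor Timp3 stood at 1994, 1942 and 1750 CPM in WT, 2165, 2269 and 2125 in APP/PS1 and 1432, 1644 and 2057 in the compound genotype, which lay below APP/PS1 without overlap (log2 difference -0.35 ± 0.135, adjusted p = 0.98 in the same test). Mmp14, a membrane metalloprotease known to cleave TIE2, stood at only 3.33 ± 0.3, 1.28 ± 1.01 and 1.92 ± 2 CPM. Its APP/PS1 libraries lay below WT without overlap, with as few as 3 counts in a library.

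Of the 11 docking and adaptor proteins of TIE2, Grb14 stood at 68.6, 87.8 and 84.5 CPM in WT, 61.4, 68.8 and 78.1 in APP/PS1 and 140, 112 and 86.6 in the compound genotype, which lay above APP/PS1 without overlap (log2 difference 0.70 ± 0.181, adjusted p = 0.98 by edgeR's quasi-likelihood test with Benjamini-Hochberg adjustment). The adaptor Nck1 stood at 84.2 ± 1.54, 100 ± 16.1 and 100 ± 7.53 CPM, with APP/PS1 and the compound genotype above WT without overlap. Dok2, a docking protein of TIE2, was at the edge of detection, with 0 to 61 counts per library. Below the receptor, 7 of the 10 genes of the PI3K-AKT list were above 0 in APP/PS1 against WT, with a median log2 difference of 0.072. Akt1, the main AKT of endothelium, stood at 53.8 ± 4.09, 50.1 ± 0.98 and 55 ± 7.64 CPM. The kinase Pdpk1, which activates AKT, stood at 32.8 ± 3.74, 34.2 ± 7.69 and 25.3 ± 4.62 CPM, and the AKT substrate Gsk3b at 131 ± 11.4, 158 ± 30.4 and 165 ± 6.54. The endothelial nitric oxide synthase Nos3, an AKT substrate, stood at 653 ± 106, 614 ± 174 and 638 ± 78.9 CPM. The compound libraries lay below WT for Pdpk1 and above WT for Gsk3b without overlap, whereas Akt1 and Nos3 overlapped in every comparison.

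The other FOXO factors had few counts, and Foxo3 stood at 5.83 ± 1.45 CPM in WT, 2.27 ± 2.52 in APP/PS1 and 2.39 ± 1.59 in the compound genotype. For Foxo3 the compound libraries lay below WT without overlap. Of the regulators of FOXO factors, the deacetylase Sirt1 stood at 8.59 ± 1.3, 10.8 ± 2.11 and 13.9 ± 4.33 CPM, the acetyltransferase Crebbp at 57.9 ± 2.51, 49.6 ± 3.76 and 56.7 ± 4.86, and the kinase Sgk1 at 177 ± 66, 213 ± 42.8 and 163 ± 17.9. Sirt1 lay above WT in the compound genotype and Crebbp below WT in APP/PS1, each without overlap, and Sgk1 overlapped throughout. Of 21 known targets of FOXO1 20 were tested, and 13, 15 and 14 of them had a log2 difference below 0 in the 3 comparisons, with medians of -0.088, -0.14 and -0.21. They included genes in both directions. Pik3ip1, an inhibitor of PI3K, stood at 281, 316 and 215 CPM in WT, 237, 209 and 201 in APP/PS1 and 179, 151 and 205 in the compound genotype, which lay below WT without overlap (log2 difference -0.60 ± 0.163, adjusted p = 0.552 by edgeR's quasi-likelihood test with Benjamini-Hochberg adjustment). Txnip, a redox and glucose regulator, stood at 503 ± 118, 374 ± 72.2 and 367 ± 21.8 CPM, and the flow-responsive factor Klf2 at 323 ± 112, 355 ± 53.3 and 286 ± 97.3, both with overlap in every comparison.

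Esm1, a secreted proteoglycan of sprouting endothelium and also a FOXO1 target, stood at 33, 53.1 and 20.2 CPM in WT, 17, 41.7 and 33.2 in APP/PS1 and 89.1, 79.2 and 41.3 in the compound genotype. It did not share the high level of Angpt2 in APP/PS1. The compound libraries were high in replicates 1 and 2, as for Foxo1, and lower in replicate 3 (log2 difference from APP/PS1 1.18 ± 0.408, adjusted p = 0.98 by edgeR's quasi-likelihood test with Benjamini-Hochberg adjustment).

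Among the 10 regulators of Angpt2 transcription, 2 were named by their p. Klf4, a Krüppel-like factor of quiescent endothelium, stood at 219, 227 and 169 CPM in WT, 313, 247 and 240 in APP/PS1 and 173, 202 and 223 in the compound genotype. APP/PS1 lay above both other genotypes without overlap (log2 difference from WT 0.38 ± 0.158, adjusted p = 0.795, and of the compound genotype from APP/PS1 -0.42 ± 0.158, adjusted p = 0.98, by edgeR's quasi-likelihood test with Benjamini-Hochberg adjustment). Ets1, an ETS factor that activates Angpt2, stood at 221, 216 and 295 CPM in WT, 294, 356 and 286 in APP/PS1 and 373, 400 and 292 in the compound genotype, where replicate 3 again lay below the other replicates and within the WT range. Gata2 stood at 435 ± 30.7, 376 ± 52.5 and 355 ± 28.7 CPM, and is named after its values were seen. Its compound libraries lay below WT without overlap.

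In the list of VEGF ligands and receptors, whose signals raise Angpt2 in sprouting vessels, 8 of 9 genes were below 0 in APP/PS1 against WT (median -0.27) and 7 of 9 above 0 in the compound genotype against APP/PS1 (median 0.38). Against WT the compound genotype had 5 of 9 below 0 (median -0.011). Kdr, the main VEGF receptor of endothelium, stood at 414, 495 and 305 CPM in WT, 308, 323 and 373 in APP/PS1 and 579, 630 and 371 in the compound genotype. Its coreceptor Nrp1 stood at 334, 490 and 370 CPM in WT, 282, 350 and 310 in APP/PS1 and 568, 559 and 405 in the compound genotype, which lay above APP/PS1 without overlap (log2 difference 0.70 ± 0.173, adjusted p = 0.98 by edgeR's quasi-likelihood test with Benjamini-Hochberg adjustment). Angpt2 differed from both genes in that its highest mean was in APP/PS1, where theirs was lowest. The ligand Vegfa was near the floor, with 0 to 39 counts per library.

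Of the 10 genes of Weibel-Palade bodies, the storage granules that hold ANGPT2, 7 were above 0 in APP/PS1 against WT (median 0.11), 9 were below 0 in the compound genotype against APP/PS1 (median -0.23) and 6 below 0 against WT (median -0.05). Vwf, the main protein of these granules, stood at 574, 206 and 654 CPM in WT, 442, 416 and 478 in APP/PS1 and 195, 263 and 409 in the compound genotype. The wide range of WT, from replicate 2 to replicate 3, covered all the other libraries but 1. The compound genotype lay below APP/PS1 without overlap for Vwf, and also for Rab27a. Rab27a, a granule GTPase, stood at 9.39 ± 4.91, 11.7 ± 2.44 and 7.32 ± 1.88 CPM, and Pdcd10, which restrains ANGPT2 release, at 84.8 ± 15.7, 111 ± 26 and 90.2 ± 9.9.

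The list drawn up for VE-PTP and endothelial junctions held 6 genes, not all of them for junction proteins. VE-cadherin (Cdh5) stood at 576 ± 21.7, 545 ± 51.1 and 599 ± 41.2 CPM in WT, APP/PS1 and the compound genotype. Fgd5, an endothelial exchange factor, stood at 235 ± 31.8, 246 ± 39 and 269 ± 17.8 CPM. Plvap, the diaphragm protein of fenestrated and leaky vessels and not a junction protein, stood at 406, 588 and 269 CPM in WT, 167, 237 and 369 in APP/PS1 and 579, 584 and 291 in the compound genotype. As for Kdr and Tie1, replicate 3 was the highest library of APP/PS1 and the lowest of the compound genotype.

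**Figure D5:**
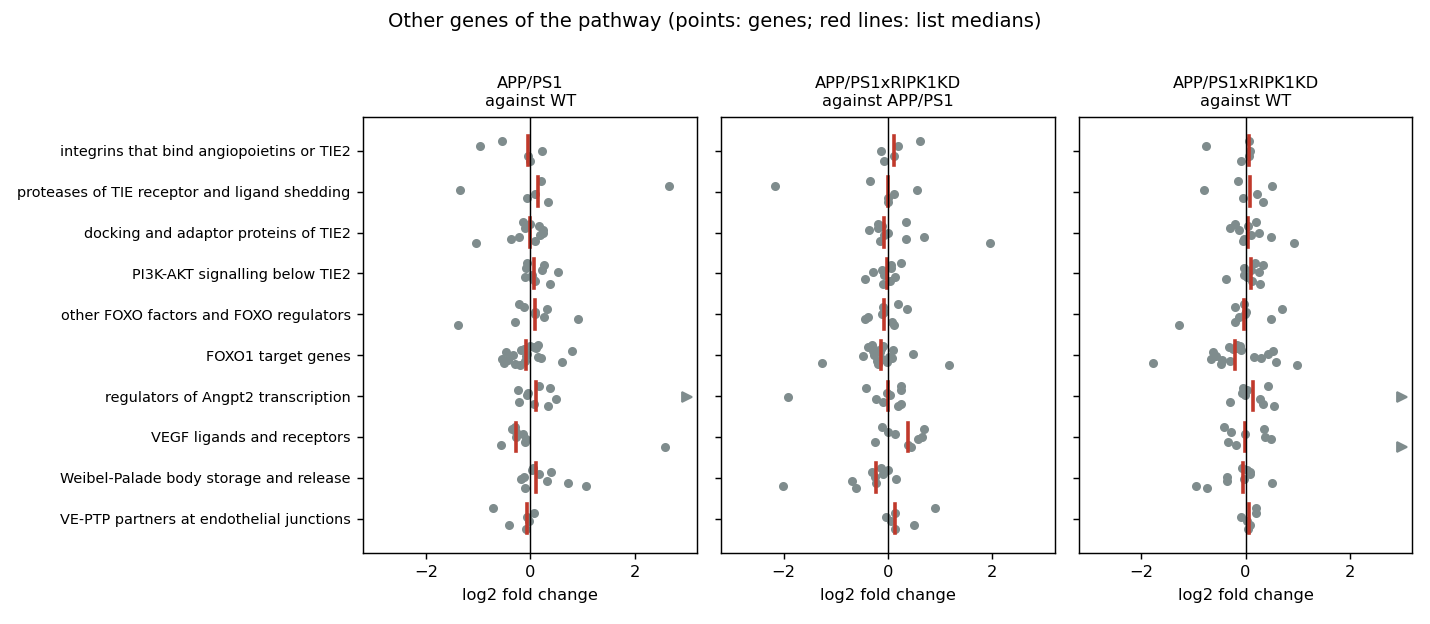
Log2 fold change (horizontal axis) of each tested gene of 10 pathway lists in the 3 comparisons; grey points are genes, red lines the medians of the lists, and arrowheads at the right edge stand for genes beyond 3 (Foxc2 at 4.97 and 3.07, Vegfa at 3.02, both with at most 49 counts in a library). The medians lie between -0.27 and 0.38, and both ends belong to the VEGF list.

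Genes whose pattern was most like that of Angpt2 were ranked by Pearson's r of log2 CPM over the 9 libraries, over 9721 genes with a mean of 5 CPM or more. Among the 5 leading genes were Ssbp1 (0.904), Anapc10 (0.902), Blzf1 (0.896) and Fbxo11 (0.89). These 4 are ubiquitin ligase components (Anapc10 and Fbxo11), a mitochondrial DNA-binding protein (Ssbp1) and a Golgi protein (Blzf1). Ssbp1 stood at 23.4 ± 1.1 CPM in WT, 30.3 ± 2.89 in APP/PS1 and 26.9 ± 2.32 in the compound genotype. For Tek the leading 3 were Xpo6 (0.903), Cox7a2 (0.892) and Mif4gd (0.878). The 9 points share genotypes and libraries, so these values order the genes and carry no test.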

How the data were processed

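Transcripts of 9 libraries were measured by Smart-seq2, which primes cDNA from poly(A) tails and keeps neither strand nor molecular identifiers, per the labels' protocols. The authors deposited RSEM expected counts per gene symbol. Bowtie 0.12.2, RSEM, edgeR 3.10.2 and mm10 (GRCm38) are named per the submitters' processing notes; no annotation is given in the sources used here. The deposited values were whole numbers except for 28.3%. The authors also deposited an edgeR table of APP/PS1 against WT with log2 fold changes, log2 abundances, a likelihood ratio score and p-values, of which the log2 fold change of Angpt2 is quoted.

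Expected counts were rounded, filtered with filterByExpr (minimum count 10, minimum total 15, 13317 of 23420 genes kept) and scaled by TMM. One edgeR 4.0.16 quasi-likelihood model (robust, R 4.3.3) was fitted over all 9 libraries, and p-values were adjusted by Benjamini-Hochberg over 13317 genes with a threshold of 0.05. The alternatives, whose effect is given further on, included DESeq2 1.42.0 and limma 3.58.1 voom. Each library is labelled as its own mouse, so the spread between libraries includes the mice. Simulated counts were also put through the fit, with 200 genes changed by 2-, 4- or 8-fold in each comparison. Of genes changed 2-fold, 35.4% were recovered in APP/PS1 against WT. For the compound genotype it was 50.0% against APP/PS1 and 42.3% against WT. The simulated sets gave 145, 147 and 134 calls in this order, where the real libraries gave 3, 1 and 5. With so few calls the Benjamini-Hochberg cut-off is stricter, so these percentages do not give the recovery in the real libraries.

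Between same-numbered libraries, r of deviations over 5000 genes was 0.122, 0.104 and 0.184 for APP/PS1 with WT. It was 0.153, 0.195 and 0.393 for the compound genotype with WT, and 0.202, 0.0797 and 0.317 for the compound genotype with APP/PS1. Pairs with different numbers ranged from -0.342 to 0.219, and 7 of 9 libraries had their highest r with their own number. Replicate 3, which had little Xist, gave the highest r in each comparison. The labels do not say what a number marks.

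Gene positions, transcript lengths and overlaps came from GENCODE M21 on GRCm38, matched by symbol, and promoters from RefSeq on GRCm38.p6, with 3 of 6 members matched. The members, the 11 pathway lists, the 14 marker lists and the rule for named genes were chosen with earlier results of these data known. The rule named the members, the gene with the smallest p of each list in each comparison, a set named regardless of its values, and the genes most alike; some genes that it selects are not reported here. Python 3.11.15 with pandas 2.3.3, scipy 1.17.1 and matplotlib 3.10.9 made the tables and figures.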

Additional observations from a re-analysis of the deposited data

How the results depend on the processing

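The log2 fold change of Angpt2 kept its sign in all 14 alternatives of each comparison, at 0.95 to 1.23 for APP/PS1 against WT, -0.63 to -0.27 for the compound genotype against APP/PS1 and 0.44 to 0.88 for the compound genotype against WT. With the replicate block it was 1.05, -0.52 and 0.53, and without Rn45s in the library sizes 1.07, -0.50 and 0.57. Angpt2 was chosen for its values and the alternatives reuse the same libraries, so the kept signs are no support. Members other than Angpt2 past the threshold numbered 0 in 14 of 14 alternatives for each comparison. Tie1 moved by more than its spread without replicate 3 of every genotype, to -0.54 and 0.56. Near 0, signs turned: Tek changed sign in 7 of 14 alternatives in the compound genotype against APP/PS1, and Angpt1 in 3 of 14 in APP/PS1 against WT (-0.73 to 0.61).

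Genes called in APP/PS1 against WT, 3 here, numbered 45 with DESeq2, 7 without the filter and 2 with the replicate block, and 1 to 5 when 1 library was left out (1 without WT replicate 3, 5 without APP/PS1 replicate 2). In the compound genotype against APP/PS1, 1 here, they numbered 19 with DESeq2 and 0 with limma-voom, with the replicate block and without replicate 3 of every genotype. Leaving out 1 library gave 0 to 4 (4 without replicate 2 of either genotype, 0 without replicate 1 or 3 of either). In the compound genotype against WT, 5 here, they numbered 62 with DESeq2, 2 with limma-voom, 14 without the filter, 3 with only the 6 libraries compared, 0 with the replicate block and 8 without replicate 3 of every genotype. Leaving out 1 library gave 2 to 9 (2 without WT replicate 1, WT replicate 2 or compound replicate 1, 3 without compound replicate 3, 9 without compound replicate 2). The cause of these shifts was not tested. The median log2 fold change of all genes was 0.01, -0.0066 and 0.0084 with RLE scaling in the 3 comparisons, and lay between -0.018 and 0.017 over all alternatives. Angpt1, Vegfa, Dok2 and Svep1 are limited by their few counts.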

Other observations

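The other marker lists gave these summed levels, as means ± SD over 3 libraries in WT, APP/PS1 and the compound genotype. Choroid plexus markers stood at 55.8 ± 13.2, 108 ± 48.8 and 227 ± 68.6 CPM, with the compound genotype above both others without overlap. Platelet markers stood at 4.82 ± 1.39, 2.49 ± 0.445 and 6.36 ± 3.44 CPM, with APP/PS1 below both others without overlap.

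Arterial endothelial markers stood at 738 ± 360, 650 ± 58.9 and 509 ± 209 CPM, venous endothelial markers at 633 ± 401, 622 ± 111 and 388 ± 104, and tip cell markers at 335 ± 76.3, 311 ± 7.71 and 369 ± 68.3. Of these, only the venous sum of the compound genotype and APP/PS1 did not overlap, the compound genotype being lower. Astrocyte markers stood at 75 ± 35.6, 73.6 ± 3.81 and 82.4 ± 9.8 CPM, microglia markers at 62.9 ± 17.2, 69.7 ± 16 and 63.9 ± 6.03, and erythroid markers at 1296 ± 179, 2672 ± 2315 and 1896 ± 550, with overlap in every comparison. Neuron markers stood at 0.826 ± 0.344, 0.338 ± 0.198 and 0.77 ± 0.308 CPM, with APP/PS1 below WT without overlap. These sums were near the floor: APP/PS1 replicate 1 had 0.126 CPM, where a count of 3 corresponds to 0.189. Of the 4 neuron markers, 2 had a higher mean in APP/PS1 than in WT.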
